A study of Mus musculus with 9 samples.

Results

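The 6 arrays of the hematopoiesis-supportive lines AGM-s3-A9 and OP9 were set together against the 3 arrays of the non-supportive line AGM-s3-A7, which takes in all 9 of the 9 arrays of the series. A probe set counted as different only where both supportive lines lay on the same side of AGM-s3-A7, and the smaller of its 2 ratios was taken as its value. All 3 are mouse stromal cell lines, for which the labels name no treatment and no genetic change. AGM-s3-A9 and AGM-s3-A7 came from the aorta-gonad-mesonephros (AGM) region of the embryo, whereas OP9 came from the calvaria of newborns. For each line total RNA was run on 3 Affymetrix array types with probe sets of their own, called MG-U74A, MG-U74B and MG-U74C. With 1 array per line and type there was no replicate, so sizes are given without p-values, and both ratios of a gene share the same AGM-s3-A7 array. Supportive capacity is represented by 2 lines and its lack by 1 line, so capacity and the identity of a line cannot be told apart.

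Stromal cells support blood formation by secreting cytokines such as stem cell factor, by holding stem and progenitor cells through chemokines and adhesion receptors, and by laying down a matrix that binds growth factors. The AGM region is where hematopoietic stem cells first arise in the embryo, and OP9 cells are widely used to grow blood cells from embryonic stem cells. OP9 is known to stem from mice with the osteopetrotic mutation of Csf1, which leaves them without functional macrophage colony-stimulating factor.

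Levels below are quantile-normalized intensities within an array type, and they are compared only between lines for the same probe set. A detection level was set for each type at 49.0 (MG-U74A), 52.8 (MG-U74B) and 61.6 (MG-U74C). A gene was measured where its brightest probe set exceeded that level in at least 1 line, and ratios are given as "at least" where a line did not reach it. Levels that follow a gene without names of lines stand in the order of AGM-s3-A9, then OP9, then AGM-s3-A7. Between 13.4% (MG-U74C) and 50.1% (MG-U74A) of probe sets lay above it in a line. Median deposited intensities were 42.7 to 64.5 (MG-U74A), 21.6 to 32.6 (MG-U74B) and 8.49 to 12.1 (MG-U74C). Ratios of 3' to 5' signal ran from 0.880 for Gapdh to 1.26 for actin over the 9 arrays. Of 12 mesenchymal markers, 11 were above detection in AGM-s3-A9 and AGM-s3-A7 and 10 in OP9. Vim was below it in every line and Thy1 in OP9. Summed over the list, the mesenchymal level was 20870 in AGM-s3-A9, 12873 in OP9 and 23409 in AGM-s3-A7. All 11 endothelial markers lay at or below detection in every line. Of 13 hematopoietic markers only Laptm5 exceeded it, in AGM-s3-A9 and AGM-s3-A7, and the summed hematopoietic level was 174 in AGM-s3-A9, 217 in OP9 and 249 in AGM-s3-A7. Of 11 epithelial markers Cldn7, Cdh1 and Epcam exceeded it in every line, with summed levels of 398, 448 and 541 in the same order.

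Of 9010 measured genes, 78 (0.866%) lay at least 2-fold above AGM-s3-A7 in both supportive lines and 104 (1.15%) at least 2-fold below it. A further 26 (0.289%) lay at least 2-fold above it in a supportive line and below it in the other. By probe set the higher and lower counts were 114 (0.815%) and 146 (1.04%) of 13995. On the values as deposited, 59.9% of the genes past 2-fold were higher, against 42.9% here. AGM-s3-A9 taken alone had 265 genes higher (2.94%) and 196 lower (2.18%), and OP9 449 higher (4.98%) and 523 lower (5.80%), with the same AGM-s3-A7 arrays in each count. Most of the differences were small, with a smaller fold between 2 and 3 for 64 of the 78 higher genes and for 74 of the 104 lower genes. Only 5 higher and 14 lower genes reached 4-fold in both lines. The last higher gene inside the threshold was Selenbp1, at 98.2 in AGM-s3-A9, 100 in OP9 and 37.5 in AGM-s3-A7, and the last lower gene was Macrod1, at 2.01-fold in AGM-s3-A9. The first genes outside, Nol10 and Cdk6, came to 2-fold after rounding. A smaller fold past 2 compares with a robust SD of the log2 ratio of 0.29 for AGM-s3-A9 and 0.31 for OP9. It was taken between probe sets of a gene on the same array type, each above detection in all 3 lines (948 genes). Only 59 of the 78 higher and 47 of the 104 lower genes were above detection in all 3 lines, so it does not cover the rest. Control probe sets repeated on the 3 types gave SDs of 0.22 and 0.17 for the brightest controls (17), 0.31 for both lines in the middle range (10) and 1.08 and 1.13 below an intensity of 32 (39). These values describe the measurement and not separate cultures.

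By the rule a higher gene must lie above detection in both supportive lines, and a lower gene in AGM-s3-A7. Only AGM-s3-A7 can thus be at or below it for the higher genes, and either supportive line for the lower genes. The counts that follow are therefore no contrast between the sets. Among the higher genes 59 of 78 were above detection in all 3 lines, and 19 were at or below it in AGM-s3-A7. Among the lower genes 47 of 104 were above detection in all lines, 25 were at or below it in both supportive lines and a further 29 in OP9 but not in AGM-s3-A9. Those 25 were measured only through AGM-s3-A7 and so could only be lower. OP9 was further from AGM-s3-A7 than AGM-s3-A9 was for 44 of the higher and 66 of the lower genes. AGM-s3-A9 was further for 34 of the higher and 13 of the lower genes, and 25 lower genes were equal, both at the detection level. Taken alone, OP9 also had more genes past 2-fold than AGM-s3-A9 in either direction. The median fold of the higher genes was 2.65 in AGM-s3-A9 and 2.75 in OP9, and that of the lower genes was 2.39 and 3.15, bounds included. Of the lower genes 15 lie on chromosome 15, where all measured genes together had a median log2 ratio of -0.17 in AGM-s3-A9 and -0.48 in OP9; they are listed with the chromosomes at the end. In a culture measured in bulk, fewer cells expressing a gene and less RNA per cell cannot be told apart.

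**Figure D1:**
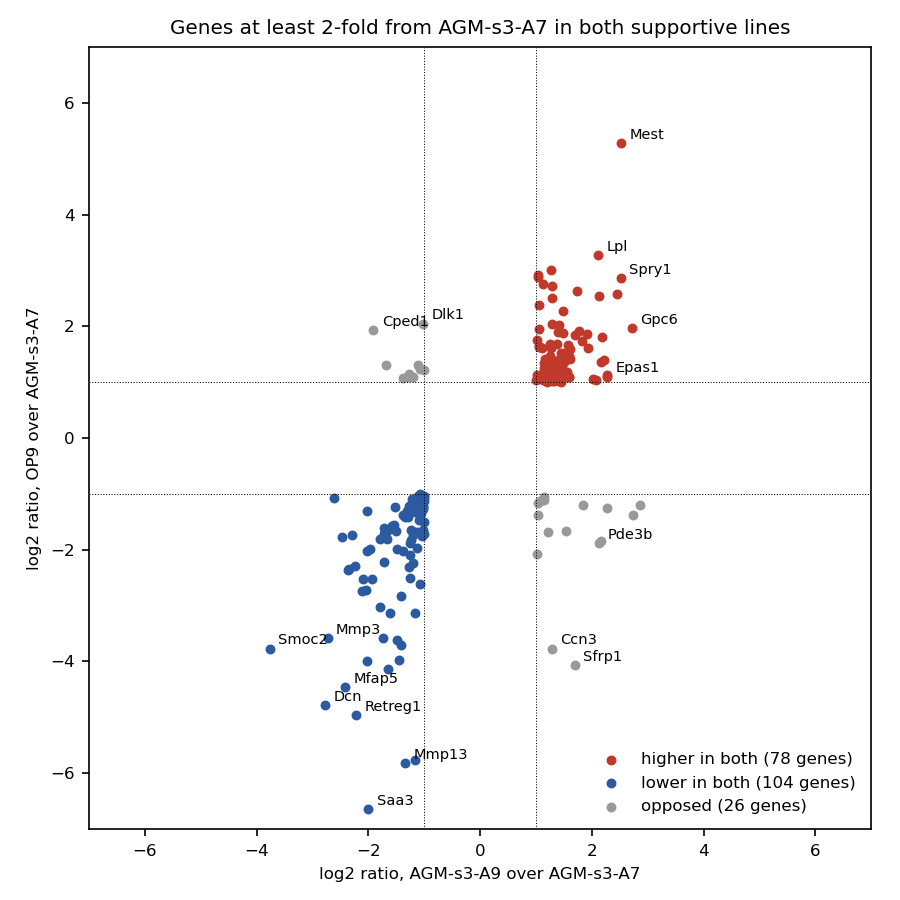
Log2 ratio to AGM-s3-A7 in AGM-s3-A9 (horizontal) and OP9 (vertical) for the 78 genes higher in both lines, the 104 lower in both and the 26 that were opposed; 1 point is 1 gene, dotted lines mark 2-fold, and ratios against a line below detection are bounds. The lower genes spread further along the OP9 axis, down to Saa3, than along the AGM-s3-A9 axis, where Smoc2 lies furthest.

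Among the cytokines with a role in hematopoiesis, Kitl was higher in both lines. It encodes stem cell factor, the ligand of the receptor Kit, and read 1243 in AGM-s3-A9, 1270 in OP9 and 438 in AGM-s3-A7. Both supportive lines lay close together and above AGM-s3-A7, by 2.84-fold and 2.90-fold. Kitl was the only 1 of 16 measured hematopoietic cytokine and growth factor genes past 2-fold in both lines. That was 6.25%, beside 0.866% of all genes, and 0 were lower. List medians were 0.31 in AGM-s3-A9 and 0.04 in OP9 on the log2 scale, against 0.00 and 0.02 over all genes. That Kitl stood alone depends on the scaling. On the values as deposited 3 of 17 were higher, and with scaling to the 75th percentile 2 of 16, with 0 lower in each. Csf1, the macrophage colony-stimulating factor gene, read 1260 in AGM-s3-A9, 1804 in OP9 and 719 in AGM-s3-A7. Its transcript was thus higher by 1.75-fold and 2.51-fold, short of the threshold in AGM-s3-A9. It passed on the values as deposited, with a smaller log2 ratio of 1.38. Clec11a, a growth factor gene of stroma and blood progenitors that is outside both the list and the naming rule, read 62.7, 103 and 256, or 4.08-fold and 2.48-fold lower.

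Cxcl12, the chemokine that holds stem cells in their niche, read 4213 in AGM-s3-A9, 4860 in OP9 and 2712 in AGM-s3-A7 on its brightest probe set, 1.55-fold and 1.79-fold higher. Of its 4 measured probe sets 1, with a suffix for possible cross-hybridisation, passed 2-fold in both lines, at 3.17-fold and 4.07-fold. Another differed by 1.10-fold in each line, downward in AGM-s3-A9 and upward in OP9, so the size is uncertain. Ackr3, a scavenger receptor that removes Cxcl12, differed the other way. Its level was 78.6 in AGM-s3-A9, 3.52 in OP9 and 323 in AGM-s3-A7, which is 4.10-fold and at least 6.59-fold lower. Among 10 measured chemokines only Ccl9, a chemoattractant of myeloid cells, passed 2-fold in both lines (10.0%, beside 0.866% of all genes). Ccl9 read 488 in AGM-s3-A9, 1325 in OP9 and 199 in AGM-s3-A7, higher by 2.45-fold and 6.64-fold. The adhesion receptor Vcam1, which binds integrins of hematopoietic cells, read 506, 907 and 387 in AGM-s3-A9, OP9 and AGM-s3-A7. All 3 of its probe sets were higher in both supportive lines, and 0 of the 3 reached 2-fold in both. The smaller log2 ratio of the brightest was 1.12 on the values as deposited, past the threshold.

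The promoters of Kitl and of Spry1, which had the largest smaller fold among genes above detection in all lines, are shown as examples of the higher genes. Each gives the 150 bases before the RefSeq start of the gene in GRCm38.p6, on the plus strand, with only the motif named for it in capitals. Matches of other motifs are left in lower case, as for the GC box letters GGGCGG that Kitl also holds.
Kitl, chr10:100015671-100015820, TATA box TATAAA in capitals, 25 bases before the start: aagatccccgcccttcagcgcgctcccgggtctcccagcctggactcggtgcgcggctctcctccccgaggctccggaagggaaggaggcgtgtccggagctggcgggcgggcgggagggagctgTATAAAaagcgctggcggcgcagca
Spry1, chr3:37639797-37639946, GC box GGGCGG in capitals, 60 bases before the start: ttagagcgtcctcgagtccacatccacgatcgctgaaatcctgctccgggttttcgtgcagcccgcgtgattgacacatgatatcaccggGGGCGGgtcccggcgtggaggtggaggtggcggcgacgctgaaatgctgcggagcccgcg
The letters shown in capitals are matches and not measured sites.

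Spry1, which restrains receptor tyrosine kinases and is itself induced by ERK, read 737 in AGM-s3-A9, 933 in OP9 and 129 in AGM-s3-A7. That is 5.73-fold and 7.25-fold higher. Of 20 measured feedback inhibitors and ERK targets, Spry1 alone was at least 2-fold higher in both lines, and 0 were at least 2-fold lower. The shares among all measured genes were 0.866% higher and 1.15% lower. Without the size limit 5 of the 20, Spry1 included, were higher in both lines and 7 were lower. The same counts for all measured genes were 2612 and 2607 of 9010. Spry2, a relative of Spry1 named after its values were seen, read 1154, 337 and 235 in AGM-s3-A9, OP9 and AGM-s3-A7. Spry2 was thus higher by 4.91-fold and 1.43-fold, past the threshold only in AGM-s3-A9. Among 22 receptor tyrosine kinases only Epha7, a receptor for ephrins, passed (4.55%, beside 0.866% of all genes). It was detected in both supportive lines, with 131 for AGM-s3-A9, 128 for OP9 and 25.7 for AGM-s3-A7, for bounds of 2.49-fold and 2.42-fold. Its smaller log2 ratio fell short at 0.96 on the values as deposited.

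Il1rn, whose product blocks the interleukin-1 receptor, read 686 in AGM-s3-A9, 914 in OP9 and 157 in AGM-s3-A7, higher by 4.37-fold and 5.82-fold. Saa3 and Lcn2, acute-phase genes of the same list, lay on the other side. Saa3, a serum amyloid gene, read 1221 in AGM-s3-A9, 14.8 in OP9 and 4898 in AGM-s3-A7, lower by 4.01-fold and at least 99.9-fold. Lcn2, encoding the iron-siderophore binder lipocalin 2, read 85.7, 138 and 474 in AGM-s3-A9, OP9 and AGM-s3-A7, or 5.53-fold and 3.43-fold lower. Its other measured probe set differed by 1.29-fold and 1.01-fold. Of the 16 measured genes of the interleukin-1 axis and acute phase, 1 was higher and these 2 were lower. That was 6.25% and 12.5%, beside 0.866% and 1.15% of all genes. The values as deposited gave 3 higher and 2 lower of 17, and scaling to the 75th percentile 1 higher and 3 lower.

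Mest, a paternally expressed imprinted gene of the mesoderm, read 282 in AGM-s3-A9, 1903 in OP9 and 45.0 in AGM-s3-A7. It was below detection only in AGM-s3-A7, for bounds of 5.75-fold and 38.8-fold, and the supportive lines themselves lay far apart. Genes of its chromosome, 6, had a median log2 ratio of 0.00 in AGM-s3-A9 and 0.36 in OP9. Of 19 measured imprinted genes 2 were higher and 2 lower in both lines (10.5% each, beside 0.866% and 1.15% of all genes). The others were Grb10, Cdkn1c, an inhibitor of cyclin-dependent kinases, and Dcn. Cdkn1c read 25.4 in AGM-s3-A9, 17.0 in OP9 and 145 in AGM-s3-A7, at least 2.96-fold lower in both. Grb10, an adaptor of insulin and growth factor receptors, passed on 1 of 3 probe sets (140, 500 and 67.9), while OP9 lay below AGM-s3-A7 on the other 2. Its direction in OP9 thus differed between probe sets, and its smaller log2 ratio was 0.66 on the values as deposited.

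Mdfi, whose product inhibits MyoD-family transcription factors, read 268 in AGM-s3-A9, 292 in OP9 and 14.1 in AGM-s3-A7, at least 5.47-fold and 5.95-fold higher. It passed on 2 of 3 probe sets, and the suffix of its brightest marks possible cross-hybridisation. Psrc1, a microtubule-binding spindle protein gene, read 176, 329 and 47.3 in AGM-s3-A9, OP9 and AGM-s3-A7, with bounds of 3.33-fold and 6.23-fold. Rarres2, encoding the chemoattractant and adipokine chemerin, read 877, 669 and 192, or 4.57-fold and 3.49-fold higher. Ak1, a cytosolic adenylate kinase gene, read 594, 554 and 167, or 3.55-fold and 3.31-fold higher. In these 4 genes the supportive lines lay within a factor of 2 of each other and clear of AGM-s3-A7. The same held for 2510009E07Rik, at 171, 189 and 43.4, whose both probe sets gave bounds above 3-fold. Plxdc2, a plexin-domain membrane protein gene, read 499, 548 and 146, but only 1 of its 4 probe sets passed.

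**Figure D2:**
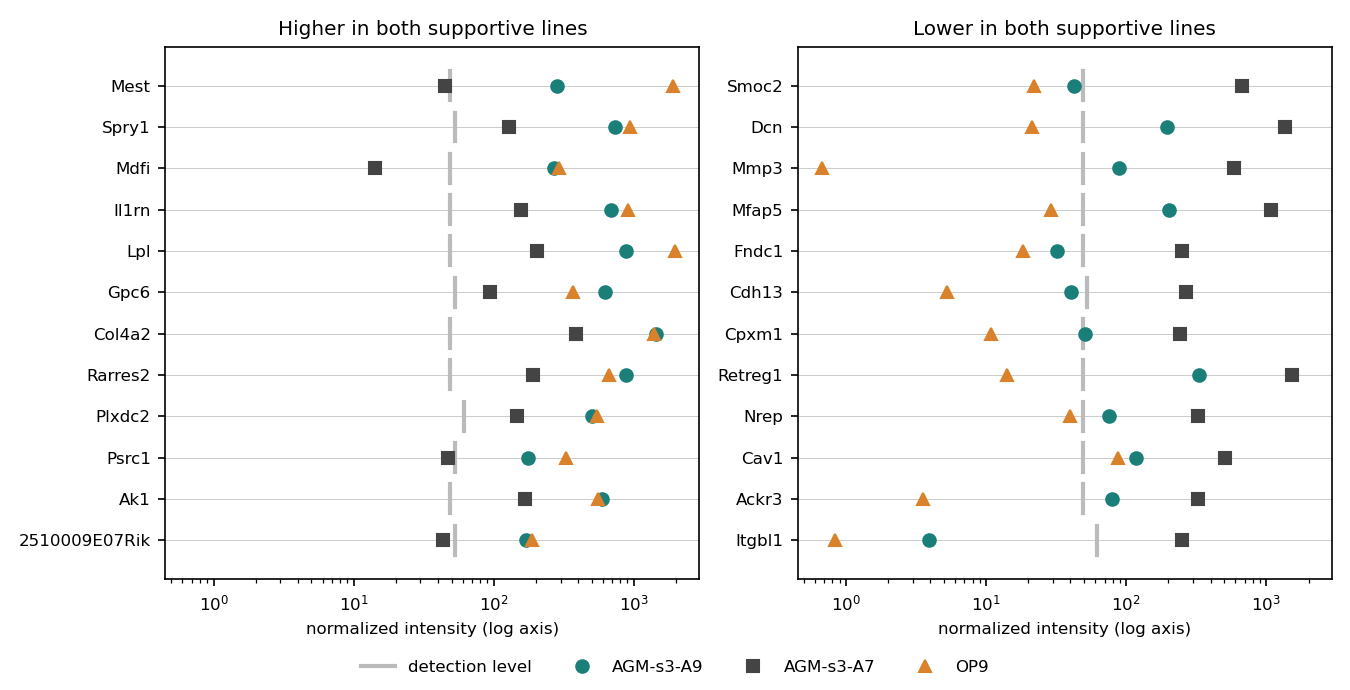
Normalized intensity (log axis) in AGM-s3-A9, OP9 and AGM-s3-A7 of the 12 genes with the largest smaller fold in each direction; 1 symbol is 1 array, and the grey bar is the detection level of the array type. Both supportive lines lie above AGM-s3-A7 for each higher gene, widest apart for Mest, and among the lower genes OP9 lies at or below AGM-s3-A9 in every row, often far below the detection level, where differences between levels are not measured.

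Past 2-fold in both lines, the collagen chains Col4a2, Col4a1 and Col15a1 were higher. Col4a2, a chain of the basement membrane collagen IV, read 1448 in AGM-s3-A9, 1400 in OP9 and 385 in AGM-s3-A7, higher by 3.76-fold and 3.64-fold. Its partner chain Col4a1, transcribed from the same locus in the opposite direction, read 1780, 1010 and 385, or 4.62-fold and 2.62-fold. Col15a1, a basement membrane zone collagen, was detected only in the supportive lines, with 207 for AGM-s3-A9, 101 for OP9 and 10.0 for AGM-s3-A7, with bounds of 4.22-fold and 2.06-fold. These were 3 of 22 measured collagen chains (13.6%, beside 0.866% of all genes), and 0 chains were lower past 2-fold. Without the size limit 5 chains were higher and 7 lower in both lines, beside 2612 and 2607 of 9010 over all genes. The fibrillar chains Col1a1 and Col1a2, named after their values were seen, differed by 1.08-fold and 1.11-fold in AGM-s3-A9 and were 1.74-fold and 1.64-fold lower in OP9. The list medians were 0.12 in AGM-s3-A9 and -0.40 in OP9, and the former was -0.04 with scaling to the 75th percentile. Col15a1 was at 0.87 (log2) on the values as deposited and at 0.94 after the median of its chromosome was subtracted, both under 2-fold.

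Heparan sulfate proteoglycans, which bind and present growth factors at the cell surface, were split. The glypican gene Gpc6 read 619 in AGM-s3-A9, 367 in OP9 and 94.1 in AGM-s3-A7, higher by 6.58-fold and 3.91-fold. The syndecan gene Sdc3 read 383, 476 and 147, or 2.60-fold and 3.23-fold higher. Against these, Sdc2, another syndecan gene, read 675 in AGM-s3-A9, 380 in OP9 and 1614 in AGM-s3-A7, lower by 2.39-fold and 4.24-fold. Glce, the epimerase that converts glucuronic to iduronic acid in the chains, read 108, 66.2 and 218, or 2.02-fold and 3.30-fold lower. So 2 of 19 measured genes were higher and 2 lower (10.5% each, beside 0.866% and 1.15% of all genes). These counts were 2 and 0 of 21 on the values as deposited. The list medians were 0.22 in AGM-s3-A9 and -0.24 in OP9. On the values as deposited Sdc2 and Glce fell short of 2-fold, at log2 ratios of -0.62 and -0.28.

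Small leucine-rich proteoglycans, which bind collagen fibrils and growth factors in the matrix, were lower where they passed 2-fold in both lines. Dcn, encoding decorin, read 196 in AGM-s3-A9, 21.2 in OP9 and 1349 in AGM-s3-A7, that is 6.89-fold lower and at least 27.5-fold lower. Aspn, encoding asporin, was detected only in AGM-s3-A7, at 154 against 31.8 in AGM-s3-A9 and 2.64 in OP9, at least 2.92-fold lower in both. Once measured, Aspn could thus only be lower. Prelp, a proteoglycan that anchors basement membranes, read 181, 528 and 1109, or 6.14-fold and 2.10-fold lower, but its other probe set differed by 1.05-fold in OP9. These 3 were 37.5% of the 8 measured genes, beside 1.15% of all genes, and the list medians were -0.74 in AGM-s3-A9 and -1.24 in OP9. Biglycan (Bgn), named after its values were seen, was at 5492, 5520 and 5293, within 1.04-fold in both lines.

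Matricellular and elastic fibre genes showed 5 of 36 measured members lower (13.9%, beside 1.15% of all genes) and 0 higher, although the list medians were 0.05 in AGM-s3-A9 and -0.28 in OP9. Smoc2, a calcium-binding matricellular protein gene, had the largest smaller fold of all genes. Its level was 42.1 in AGM-s3-A9, 22.1 in OP9 and 667 in AGM-s3-A7, at least 13.6-fold lower in both, and its MG-U74C probe set gave a bound of 1.79-fold. Mfap5, encoding a microfibril glycoprotein, read 202, 29.1 and 1077, or 5.34-fold and at least 22.0-fold lower. Fndc1, a fibronectin-domain protein gene, read 32.2, 18.4 and 252, at least 5.15-fold lower in both. Itgbl1, an integrin beta-like secreted protein gene, read 3.88, 0.838 and 249, at least 4.05-fold lower. In each of these 4 genes AGM-s3-A7 was the highest line and OP9 was below detection. Smoc2, Fndc1 and Itgbl1 were above detection only in AGM-s3-A7, so once measured they could only be lower. This list, like the others, was chosen with earlier results of these data known, so its share is no independent support. The remaining member was Ccn5 (2.83-fold and 3.17-fold lower), a growth-restraining CCN protein gene outside the naming rule.

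Among extracellular proteases and their inhibitors 5 of 22 measured genes (22.7%, beside 1.15% of all genes) were lower and 0 higher. The medians of the list were -0.31 in AGM-s3-A9, where the values as deposited gave 0.04 and 3 lower members, and -0.78 in OP9. Mmp3, the stromelysin gene, read 88.4 in AGM-s3-A9, 0.675 in OP9 and 585 in AGM-s3-A7, lower by 6.61-fold and at least 11.9-fold. The collagenase gene Mmp13, also in the matrix metalloproteinase cluster of chromosome 9, read 1091, 15.6 and 2769, or 2.54-fold and at least 56.5-fold lower. AGM-s3-A9 kept a high Mmp13 level, while OP9 lay below detection for both. Cpxm1, a carboxypeptidase-like protein gene, read 50.8, 10.9 and 240, or 4.71-fold and at least 4.89-fold lower. Adamts12, a metalloproteinase gene with thrombospondin repeats, read 80.5, 27.6 and 306, or 3.80-fold and at least 5.79-fold lower. The cathepsin gene Ctsk (398, 360 and 819) was 2.06-fold and 2.27-fold lower. Mmp13 and Ctsk lie outside the naming rule and complete the 5.

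Promoters of Mmp3 and Mmp13 are shown because both genes were lower in the supportive lines and both carry the AP-1 motif TGANTCA, in capitals, close to the start. Both also hold the TATA box letters TATAAA, which are left in lower case. Each stretch is 150 bases before the RefSeq start in GRCm38.p6, on the plus strand.
Mmp3, chr9:7445672-7445821, motif 46 bases before the start: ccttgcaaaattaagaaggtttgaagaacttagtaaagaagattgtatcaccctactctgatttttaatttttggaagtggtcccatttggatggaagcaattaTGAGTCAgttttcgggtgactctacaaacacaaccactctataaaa
Mmp13, chr9:7272364-7272513, motif 35 bases before the start: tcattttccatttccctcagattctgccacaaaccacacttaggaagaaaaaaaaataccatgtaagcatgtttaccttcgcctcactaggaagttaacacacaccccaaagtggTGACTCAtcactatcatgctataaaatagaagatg
AP-1 is a dimer of Fos and Jun family proteins, and Fos itself, outside the naming rule, read 139 in AGM-s3-A9, 139 in OP9 and 46.0 in AGM-s3-A7, at least 2.84-fold and 2.83-fold higher. What the motif does in these lines was not measured.

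RefSeq promoters (250 bases before the start, both strands searched) were found for 59 of the 78 higher and 71 of the 104 lower genes. TATAAA was in 8.70% of the 92 promoters of higher genes, 16.8% of the 107 of lower genes, 6.70% of those of all measured genes and 12.4% of all promoters. TGANTCA was in 3.26%, 8.41%, 4.42% and 6.75% in the same order, and GGGCGG in 51.1%, 45.8%, 58.6% and 32.7%. CCAAT was in 32.6%, 32.7%, 34.7% and 33.8%, and the E-box CACGTG in 6.52%, 8.41%, 8.44% and 6.02%. The CRE letters TGACGTCA were in 1.09%, 1.87%, 2.42% and 1.55%, and the TEAD letters GGAATG in 7.61%, 9.35%, 10.4% and 12.6%. These shares describe the letters, and none was tested. No motif searched contains another, but matches of different motifs may share bases.

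**Figure D3:**
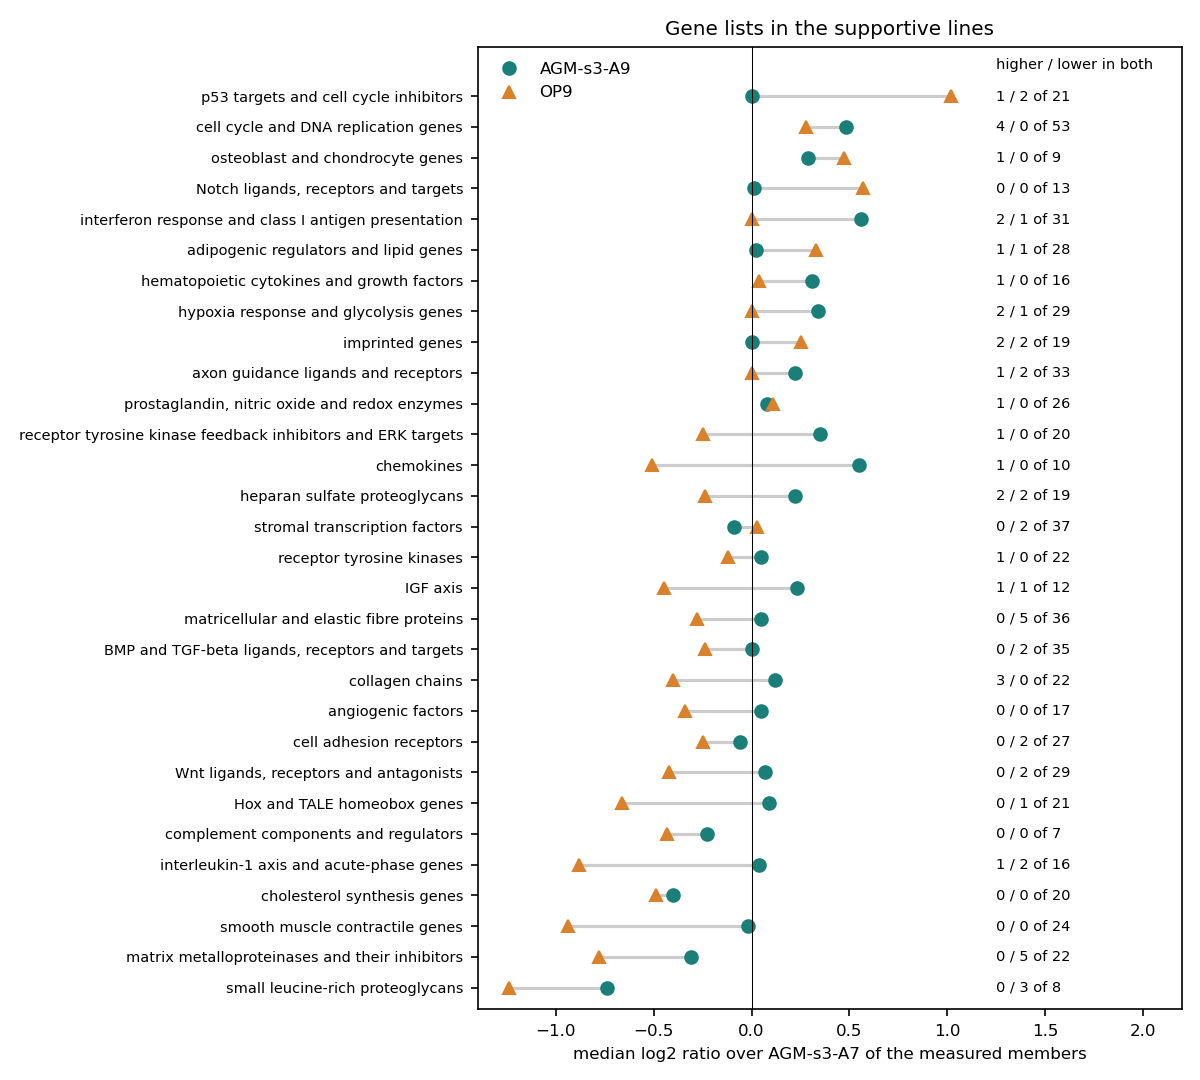
Median log2 ratio to AGM-s3-A7 of the measured members of 30 gene lists in AGM-s3-A9 and OP9, with the number of members at least 2-fold higher and lower in both lines and the number measured at the right. Small leucine-rich proteoglycans and metalloproteinases lie to the left in both lines with 0 higher members (the latter at 0.04 in AGM-s3-A9 on the values as deposited), and cell cycle genes to the right with 0 lower members.

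Cell cycle and DNA replication genes lay mostly above AGM-s3-A7, by small steps. Of 53 measured members 4 passed 2-fold (7.55%, beside 0.866% of all genes) and 0 were lower, and 35 were higher in both lines at any size while 4 were lower. Over all genes these counts were 2612 and 2607 of 9010. The list medians were 0.48 in AGM-s3-A9 and 0.28 in OP9. Cdc20, the activator of the anaphase-promoting complex, read 239 in AGM-s3-A9, 224 in OP9 and 97.3 in AGM-s3-A7, higher by 2.45-fold and 2.31-fold. The mitotic kinase gene Aurkb (131, 99.2 and 40.5) had bounds of 2.68-fold and 2.02-fold, and the kinetochore motor gene Cenpe (118, 109 and 41.1) of 2.23-fold and 2.05-fold. The spindle assembly factor gene Tpx2 (121, 106 and 47.0), the remaining member, had bounds of 2.28-fold and 2.01-fold, on 1 of 2 probe sets. Of these 4 genes only Cdc20 was above detection in AGM-s3-A7. With 2 times the detection level as floor, the smaller log2 ratios of Aurkb and Cenpe were 0.02 and 0.04. Mki67 and Top2a, named after their values were seen, were higher by 2.60-fold and 2.47-fold for AGM-s3-A9 and by 1.86-fold and 1.82-fold for OP9. Cenpe and Aurkb were under 2-fold on the values as deposited, at log2 ratios of 0.82 and 0.85, and Cenpe also after the chromosome median was subtracted, at 0.89. With these settings 5 and 2 members of the list were higher. How far the cultures had grown is not given in the labels, and its part in these values was not tested.

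Inhibitors of the cell cycle lay on both sides of AGM-s3-A7. Cdkn1a, the p53 target encoding p21, read 174 in AGM-s3-A9, 538 in OP9 and 79.8 in AGM-s3-A7, higher by 2.18-fold and 6.73-fold, on 1 of 2 probe sets. Perp, a p53 target of desmosomes, was detected only in AGM-s3-A7, at 193 against 1.11 in AGM-s3-A9 and 2.58 in OP9, at least 3.94-fold lower. Counting Cdkn1c, 1 of 21 measured p53 targets and inhibitors was higher and 2 lower (4.76% and 9.52%, beside 0.866% and 1.15% of all genes). The values as deposited gave 5 higher and 2 lower of 22. The list medians were 0.00 in AGM-s3-A9 and 1.02 in OP9.

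Interferon response and class I antigen presentation genes gave 2 of 31 higher and 1 lower, against 3 and 0 of 30 on the values as deposited. The former were 6.45% and 3.23%, beside 0.866% and 1.15% of all genes. Lgals3bp, a secreted galectin-binding glycoprotein gene, read 2799 in AGM-s3-A9, 2526 in OP9 and 1121 in AGM-s3-A7, higher by 2.50-fold and 2.25-fold, on 1 of 2 probe sets. Iigp1, an interferon-inducible GTPase gene, read 131, 188 and 61.3, or 2.14-fold and 3.07-fold higher, also on 1 of 2. Isg20, an antiviral exonuclease gene, read 49.2, 34.8 and 116, or 2.36-fold and at least 2.37-fold lower. The list medians were 0.56 in AGM-s3-A9 and 0.00 in OP9. On the values as deposited the smaller log2 ratios of Lgals3bp and Isg20 were 0.56 and -0.56.

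Hypoxia response genes included Epas1, which encodes hypoxia-inducible factor 2 alpha. Its brightest probe set read 1620 in AGM-s3-A9, 715 in OP9 and 334 in AGM-s3-A7, higher by 4.85-fold and 2.14-fold. Ddit4, a stress-induced inhibitor of mTOR signalling, read 426, 403 and 196, or 2.17-fold and 2.06-fold higher. Ndrg1, a stress-responsive gene, read 176, 43.9 and 585, or 3.33-fold and at least 11.9-fold lower, with both of its probe sets in that direction. Of 29 measured genes 2 were thus higher and 1 lower, against 3 and 0 on the values as deposited. The former were 6.90% and 3.45%, beside 0.866% and 1.15% of all genes. Glycolytic members such as Ldha (1.13-fold and 1.10-fold, named after its values were seen) stayed below the threshold. Ndrg1 was at a log2 ratio of -0.66 on the values as deposited.

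Lpl, the lipoprotein lipase gene of adipocytes and stroma, read 878 in AGM-s3-A9, 1974 in OP9 and 203 in AGM-s3-A7, higher by 4.32-fold and 9.71-fold, and its other probe set gave 3.01-fold and 5.09-fold. Lpl was the only 1 of 28 adipogenic genes at least 2-fold higher in both lines, and 1 was lower. The values as deposited gave 5 higher and 0 lower. Here the shares were 3.57% each, beside 0.866% and 1.15% of all genes. The lower gene was Cebpd, an early adipogenic and acute-phase transcription factor gene, at 421, 401 and 1067, or 2.54-fold and 2.66-fold. Its smaller log2 ratio was -0.68 on the values as deposited. Pparg and Cebpa, named after their values were seen, were higher by 1.51-fold and 1.96-fold for AGM-s3-A9 and by 4.39-fold and 4.24-fold for OP9. Sox9, the cartilage transcription factor gene, read 230, 577 and 111, or 2.07-fold and 5.20-fold higher, on 1 of 3 probe sets. It was the only 1 of 9 measured osteoblast and chondrocyte genes to pass (11.1%, beside 0.866% of all genes). Its smaller log2 ratio was 0.71 on the values as deposited. Gsta4, a glutathione transferase gene that detoxifies lipid aldehydes, read 135, 117 and 5.68, with bounds of 2.76-fold and 2.39-fold. It was the only 1 of 26 prostaglandin and redox enzyme genes to pass (3.85%, beside 0.866% of all genes).

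In the lists of the BMP and TGF-beta, Wnt and IGF pathways the balance of higher and lower genes depended on the scaling. Tgfbr2, the type II receptor of TGF-beta, read 573 in AGM-s3-A9, 571 in OP9 and 1192 in AGM-s3-A7, lower by 2.08-fold and 2.09-fold. Inhbb, an activin subunit gene, was detected only in AGM-s3-A7, at 111 against 1.77 and 0.618, at least 2.26-fold lower. These were 2 of 35 BMP and TGF-beta pathway genes (5.71%, beside 1.15% of all genes), with 0 higher. The values as deposited gave 1 lower and 2 higher. In the Wnt list the ligand gene Wnt10a (44.0, 31.1 and 105) was at least 2.15-fold lower, and the antagonist gene Nkd2 (74.6, 16.1 and 246) was 3.30-fold and at least 4.66-fold lower, with 0 of 29 higher. The 2 lower genes were 6.90% of the 29, beside 1.15% of all genes. For this list the values as deposited gave 2 higher and 2 lower of 30. Igfbp6, a binding protein for IGF-II, read 281, 7.44 and 774, or 2.75-fold and at least 15.8-fold lower. It and Grb10 were the only members of the 12 IGF genes that passed (8.33% each way, beside 0.866% and 1.15% of all genes). The values as deposited gave 0 higher and 1 lower. On the values as deposited the smaller log2 ratios were -0.83 for Tgfbr2, -0.92 for Inhbb, -0.59 for Wnt10a and -0.74 for Igfbp6.

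Surface molecules were followed in the lists of adhesion receptors and of axon guidance. Amigo2, an adhesion molecule gene with leucine-rich repeats, read 251 in AGM-s3-A9, 64.1 in OP9 and 1016 in AGM-s3-A7, lower by 4.05-fold and 15.9-fold. Cdh13, a cadherin without a cytoplasmic tail, read 40.3, 5.23 and 268, at least 5.07-fold lower in both lines. Cdh13 was above detection only in AGM-s3-A7, so once measured it could only be lower. Amigo2 and Cdh13 were 2 of 27 adhesion receptors (7.41%, beside 1.15% of all genes), with 0 higher. The values as deposited gave 2 lower and 2 higher of 26. Nrp2, the co-receptor of semaphorins and VEGF-C, read 51.4, 6.87 and 172, at least 3.25-fold lower. The semaphorin gene Sema5a read 158, 113 and 361, or 2.28-fold and 3.20-fold lower, on 1 of 2 probe sets. With Epha7, 1 of 33 axon guidance genes was higher and Nrp2 and Sema5a were lower (3.03% and 6.06%, beside 0.866% and 1.15% of all genes). The values as deposited gave 2 and 2 of 34.

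Among transcription factors of stroma, 2 of 37 were lower (5.41%, beside 1.15% of all genes) and 0 higher. The values as deposited gave 3 higher and 0 lower of 38, so the direction of this list depends on the scaling. Twist1, which drives mesenchymal programs, read 130 in AGM-s3-A9, 121 in OP9 and 263 in AGM-s3-A7, lower by 2.02-fold and 2.18-fold. Foxf1, a factor of splanchnic mesoderm, read 58.6, 63.6 and 136, or 2.32-fold and 2.14-fold lower. Both were under 2-fold on the values as deposited, at log2 ratios of -0.28 and -0.84, and Twist1 also after the chromosome median was subtracted, at -0.83. Hoxc8 was the 1 lower gene of 21 Hox and related homeobox genes (4.76%, beside 1.15% of all genes). It read 39.5, 16.3 and 214, at least 3.48-fold lower in both. Its MG-U74A probe set gave a bound of 1.98-fold.

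Some of the lower genes named by size belong to no list. Cav1, encoding the caveolin of membrane pits called caveolae, read 118 in AGM-s3-A9, 87.8 in OP9 and 503 in AGM-s3-A7, lower by 4.26-fold and 5.73-fold. Cavin2, encoding a coat protein of caveolae, read 599, 122 and 1607, or 2.68-fold and 13.1-fold lower. Both supportive lines were below AGM-s3-A7 in each case, although Cavin2 was at -0.80 on the values as deposited. Retreg1, a receptor for the autophagy of the endoplasmic reticulum, read 328, 14.2 and 1527, or 4.65-fold and at least 31.2-fold lower. Nrep, a gene of motile mesenchymal and neural cells, read 75.7, 40.0 and 326, or 4.31-fold and at least 6.66-fold lower.

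Lists without any member past 2-fold in both lines were the Notch pathway (13 measured), complement (7), angiogenic factors (17), cholesterol synthesis (20) and smooth muscle contractile genes (24). Notch had 2 higher members, angiogenic factors 1 higher and cholesterol synthesis 1 lower on the values as deposited, and with scaling to the 75th percentile angiogenic factors had 1 higher. Cholesterol synthesis genes still lay mostly on the lower side: 14 of 20 were lower in both lines at any size and 1 was higher, with medians of -0.40 in AGM-s3-A9 and -0.49 in OP9. The former median was -0.07 on the values as deposited. Over all genes 2607 of 9010 were lower in both lines at any size and 2612 were higher. Sqle, the squalene epoxidase gene, named after its values were seen, read 515 in AGM-s3-A9, 528 in OP9 and 934 in AGM-s3-A7, lower by 1.81-fold and 1.77-fold. Smooth muscle genes had medians of -0.02 in AGM-s3-A9 and -0.94 in OP9. In all, 24 of the 78 higher and 34 of the 104 lower genes belonged to at least 1 of the 30 lists. The share of all measured genes in these lists is not given, so the counts only describe what the lists cover.

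Probe sets on another array type give a separate hybridisation of each line. Of 1453 genes measured on 2 or more types, 4 (0.275%) were at least 2-fold higher and 6 (0.413%) lower in both lines on 2 types. The higher genes included Col4a2, Epas1 and Nfib. On its other type Col4a2 read 375 in AGM-s3-A9, 448 in OP9 and 165 in AGM-s3-A7, higher by 2.27-fold and 2.71-fold. Epas1 read 301, 146 and 44.1 there, with bounds of 6.15-fold and 2.97-fold. Nfib, a nuclear factor I gene, had 2 of 6 probe sets past 2-fold and all 6 higher in both lines. Its brightest was among the other 4, at 364, 491 and 268, or 1.36-fold and 1.83-fold.

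The 6 lower genes on 2 types were Cavin2, Cdh13, Dab2, Mfap5, Nkd2 and Sphk1. Dab2, an endocytic adaptor gene, passed on all 4 of its probe sets, with 266 in AGM-s3-A9, 277 in OP9 and 646 in AGM-s3-A7 on the brightest, or 2.43-fold and 2.33-fold lower. Its log2 ratio was -0.53 on the values as deposited. Sphk1, which makes sphingosine 1-phosphate, read 237, 220 and 532, or 2.25-fold and 2.41-fold lower, and 3.66-fold and 3.14-fold on its other type. Mfap5 was 3.59-fold and at least 7.52-fold lower on MG-U74C. Cavin2 read 548, 71.6 and 1167 there, or 2.13-fold and 16.3-fold lower. All 3 probe sets of Cdh13 passed, with bounds from 2.77-fold to 5.07-fold. Each was above detection only in AGM-s3-A7, so once measured it could only be lower.

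More widely, where a gene past 2-fold in both lines had another measured probe set, that one often kept the direction and less often the size. On the same array type 5 of 17 higher genes (29.4%) reached 2-fold again and 14 (82.4%) were higher in both lines. On another type these were 3 of 12 (25.0%) and 8 (66.7%). For lower genes the counts were 4 of 15 (26.7%) and 13 (86.7%) on the same type, and 6 of 18 (33.3%) and 18 on another type. None of these other probe sets, of higher or lower genes, reached 2-fold in the opposite direction in both lines. For some lower genes, among them Smoc2, Hoxc8 and Sema5a, the other probe set was above detection only in AGM-s3-A7. Such a probe set could only be lower, so its direction was fixed by the filter. Over all genes the next probe set was at least 2-fold higher in 0.756% and lower in 0.825% on the same type, and 0.551% and 1.03% on another. At any size it was higher in both lines in 25.6% and lower in 32.5% on the same type. On another type these shares were 23.8% and 30.0%.

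**Figure D4:**
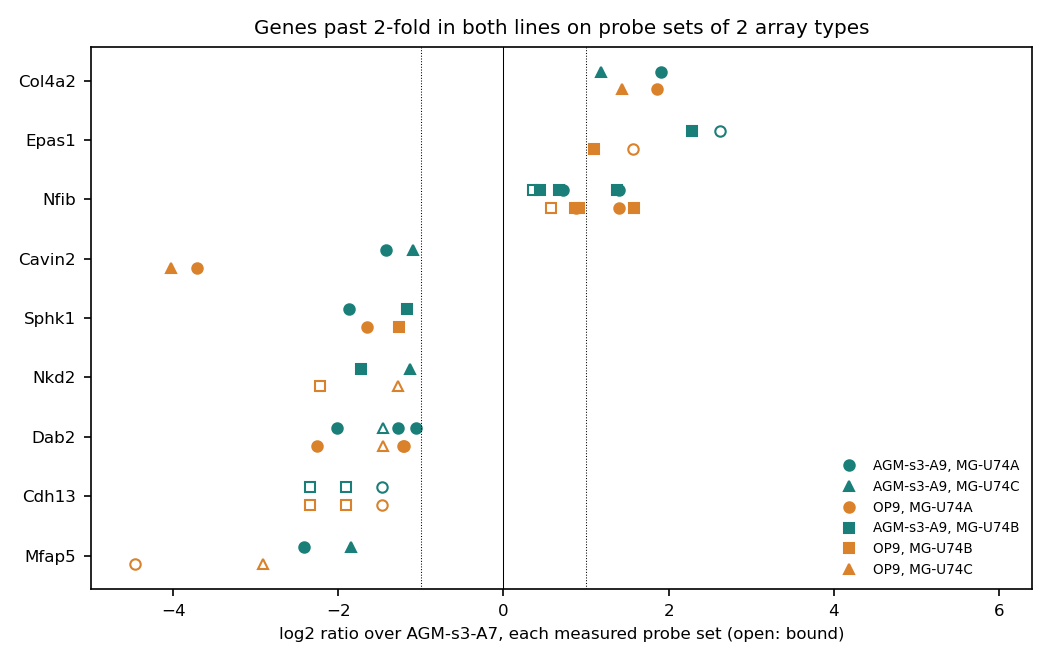
Log2 ratio to AGM-s3-A7 of every measured probe set of 9 of the 10 genes past 2-fold in both lines on 2 array types, by line (colour) and array type (shape); open symbols are bounds and dotted lines mark 2-fold. The symbols of each gene lie on the same side of 0, and Nfib has probe sets inside the dotted lines.

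The genes were not spread evenly over the chromosomes. Chromosome 15 had 15 of 381 measured genes lower (3.94%, beside 1.15% of all genes) and 0 higher. Its lower genes include Retreg1, Amigo2, Adamts12, Hoxc8, Ndrg1, Igfbp6, Sdc2, Sema5a and Dab2 described above, and the others were Fbxo32, Gdnf, Kif21a, Mapk12, Rictor and Ttc33. After the chromosome median was subtracted, 11 of the 15 remained past 2-fold. Dab2 was not among them, at a log2 ratio of -0.74 on its brightest probe set. Chromosome 12 had 8 of 282 genes lower (2.84%), with medians of -0.18 and 0.10, and 3 of the 8 remained. Chromosome 2, with a median of 0.22 in AGM-s3-A9 and 0.05 in OP9, had 10 of 729 higher (1.37%, beside 0.866% of all genes). Of these 10 genes 6 remained. The share of higher genes was larger on chromosomes 14 (5 of 317, 1.58%) and 11 (11 of 775, 1.42%). Differences in chromosome copy number between the lines were not measured.

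**Figure D5:**
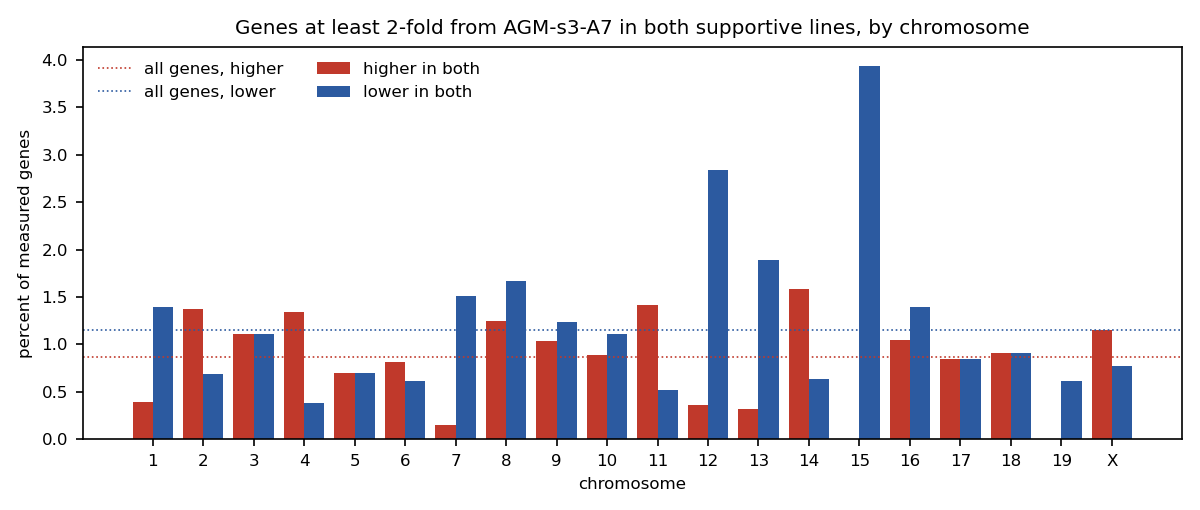
Percentage of measured genes on each chromosome that were at least 2-fold higher (red) or lower (blue) in both supportive lines, with dotted lines at the percentages over all genes (0.866% and 1.15%). Chromosome 15 has the tallest bar, 3.94% lower, and no higher gene.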

How the data were processed

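Each deposited table gives linear intensities by probe set for 1 array. How the authors summarised and scaled them is not given in the sources used here. Per the labels' protocols, cRNA was biotinylated from 6 ug of total RNA. Of 36899 probe sets 198 are controls, 29131 carry 1 gene symbol in the platform annotation, 724 several and 6846 none; genes were named only from probe sets with 1 symbol.

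Log2 intensities were quantile-normalized over the 3 arrays of a type, because the deposited scales differ. Equal distributions remove any general shift between lines. The detection level is the higher of the median of all normalized values and the 95th percentile of 34 negative control probe sets, and lower values were set to it before ratios were formed. A gene is represented by its brightest measured probe set. Named are, per direction, the 12 genes with the largest smaller fold, up to 8 that passed 2-fold on 2 array types and up to 3 called members of each list, with Kitl, Cxcl12, Csf1, Vcam1, Dlk1, Spry1, Mest and Dcn always, and the 6 opposed genes with the largest lesser ratio of the pair. The comparison, the members and the lists were chosen with earlier results of these data known. Nol10, Cdk6, Selenbp1 and Macrod1 only mark the threshold. The values of 1 gene that passed on 2 array types are not reported here. Scripts ran in Python 3.11.15 with numpy 2.4.6, pandas 2.3.3 and matplotlib 3.10.9, and were tested on simulated data. Alternatives were other floors, thresholds, scalings, probe sets and gene summaries.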

Additional observations from a re-analysis of the deposited data

Results flagged for a closer look

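For 26 of 9010 measured genes (0.289%) AGM-s3-A9 and OP9 lay at least 2-fold on opposite sides of AGM-s3-A7, so they are not among the genes higher or lower in both lines. Listed are the 6 whose lesser ratio of the pair was largest, because the ratios run in opposite directions; with 1 array per line and type the difference was not tested. Values below are the log2 ratio of OP9 minus that of AGM-s3-A9, both against AGM-s3-A7, with bounds where a line is below detection. Cped1 was the only 1 of the 6 that was higher in OP9, with a difference of 3.84, at 69.6 in AGM-s3-A9, 998 in OP9 and 262 in AGM-s3-A7. The Wnt antagonist gene Sfrp1 had a difference of -5.76, at 2861, 45.1 and 882. The microfibril gene Mfap2 differed by -4.09, at 837, 38.3 and 127, opposite to Mfap5 in AGM-s3-A9. The phosphodiesterase gene Pde3b differed by -4.02, at 855, 2.85 and 195, and Thbd, encoding the anticoagulant thrombomodulin, likewise by -4.02, at 793, 18.1 and 176. The vitamin D receptor gene Vdr differed by -3.21, at 452, 2.77 and 156.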

How the results depend on the processing

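No paired analysis was possible because each line was hybridised once to each array type, and no array could be left out. Counts are given in the order probe sets higher, probe sets lower, genes higher, genes lower, then genes higher and genes lower on 2 array types (114, 146, 78, 104, 4 and 6 as reported). With the median of all values as floor they were 236, 302, 126, 161, 5 and 14, and with 2 times the detection level 55, 75, 40, 62, 2 and 3. At a 1.5-fold threshold they were 430, 543, 297, 333, 10 and 30, and at 3-fold 19, 38, 14, 30, 0 and 1. On the values as deposited they were 228, 196, 167, 112, 2 and 12; there the median of all genes in AGM-s3-A9 was at 0.18, and 59.9% of called genes were higher, against 42.9% as reported. Floors and thresholds change the counts by construction, and the cause of the shift on the deposited values was not tested. Without probe sets of possible cross-hybridisation 2 genes were higher on 2 types, and on MG-U74A and MG-U74B alone 2 were lower on 2 types. All other counts under these settings, with 75th percentile scaling, with the median over the probe sets of a gene, and with the settings added after the data were seen (the chromosome median subtracted, and without genes of chromosome 15), stayed within 1.5 times.

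The same genes stayed past 2-fold as follows. Of the 78 higher genes, 53 did so on the values as deposited, 74 with 75th percentile scaling, 62 with the median over probe sets and 67 after subtraction of the chromosome median. Of the 104 lower genes these were 58, 104, 86 and 89. No gene passed 2-fold in the opposite direction in both lines under any setting. The median over probe sets put Cdkn1a (0.67), Grb10 (0.00), Iigp1 (0.55), Lcn2 (-0.88), Lgals3bp (0.81), Plxdc2 (0.12), Prelp (-0.50), Sema5a (-0.74) and Sox9 (0.33) under 2-fold on the log2 scale.

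Signal over background limits MG-U74C most, where 13.4% of probe sets exceeded detection. Ratios against a line below detection are bounds and shrink with a higher floor. The same AGM-s3-A7 array enters both ratios, so an error of that array moves both the same way, and its size cannot be told from these data.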

Other observations

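Dlk1, a Notch-related protein gene of preadipocytes and stroma, set the supportive lines apart from each other rather than from AGM-s3-A7. It read 230 in AGM-s3-A9, 1934 in OP9 and 467 in AGM-s3-A7, that is 2.03-fold lower and 4.14-fold higher.

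Some genes outside the naming rule, picked after their values were seen, add to the secreted and matrix genes above. Gas6, the ligand of the Tyro3, Axl and Mertk receptors, read 1126 in AGM-s3-A9, 1735 in OP9 and 424 in AGM-s3-A7, higher by 2.66-fold and 4.09-fold. Plod2, which hydroxylates collagen lysines for cross-linking, read 1076, 1096 and 429, or 2.51-fold and 2.55-fold higher. S100a4, a calcium-binding protein gene of motile mesenchymal cells and 1 of the mesenchymal markers, read 498, 214 and 1734, or 3.48-fold and 8.08-fold lower. Mgp, the inhibitor of matrix calcification, read 673, 518 and 1438, or 2.14-fold and 2.77-fold lower.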
